A study of Bos taurus with 20 samples.

Results

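Small single-exon genes above a set RNA level in bovine conceptuses numbered 315 of the 27607 genes in the count files. They were chosen by 4 conditions. An annotated length of 200 nucleotides or less, a single exon and a place outside the X chromosome and the mitochondrial genome left 3388 candidates. A mean of at least 1 CPM (counts scaled to an assigned library total of 1000000) over the 19 libraries with more than 1000000 counts left 9.30% of those candidates. Of all candidates, 2169 had a count in at least 1 library and 1219 had no count in any of the 20 libraries. Below, a candidate called measured or expressed is one that passed the limit of 1 CPM. The level was part of the choice, so the mean CPM of a chosen gene is a description. The genes just inside the limit, ENSBTAG00000052725 and ENSBTAG00000043240, averaged 1.01 and 1.01 CPM, and those just outside, ENSBTAG00000043713 and ENSBTAG00000042176, averaged 0.996 and 0.991 CPM.

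The conceptuses came from Bos taurus embryos made by fertilisation in vitro. Recombinant bovine interleukin 6 (IL6, a cytokine) at 100 ng/ml, or the carrier SOF-BE1, was given on day 5, and blastocysts were collected for transfer on day 7.5. The groups were 12 ovoid conceptuses (6 control and 6 with IL6) and 8 tubular ones (4 control and 4 with IL6), each library being 1 whole conceptus. Females numbered 3 of 6 among ovoid controls, 4 of 6 in ovoid IL6, 1 of 4 among tubular controls and 2 of 4 in tubular IL6; the rest were males. Age at recovery, breed and the number of dams were not given in the sources used here. Titles open with a code of unstated meaning: c201 (4 ovoid), c5036 (2 ovoid, 2 tubular) and c8086 (2 tubular) hold controls only, and c6186 (4 ovoid, 2 tubular) and c9007 (2 ovoid, 2 tubular) hold IL6 conceptuses only, so treatment and code cannot be told apart. Among controls, shapes share only c5036. If conceptuses that share a code resemble each other apart from treatment, the IL6 p-values are too small.

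Small nuclear RNAs form the core of the spliceosome, which removes introns from messenger RNA precursors. Small nucleolar RNAs guide chemical modification of ribosomal and other RNAs and in mammals mostly lie in introns of longer genes, from which they are trimmed after splicing. MicroRNAs are cut from hairpin precursors and lower the output of target messengers. An early conceptus grows quickly and needs ribosomes and spliceosomes in quantity, and all 3 families are measured poorly by libraries built for long RNA.

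The files give identifiers, positions and lengths but no names or classes. None of the identifiers matched the RefSeq gene table at hand (0 of 27607), so whether a given gene is noncoding was not checked, and no sequence is shown. Markers of trophectoderm, epiblast, hypoblast, endometrium and blood could not be looked up by name for the same reason, so the tissue label was not checked. Length gives an indirect view. In RefSeq's annotation of the later assembly ARS-UCD2.0, all 19 genes of exactly 191 nucleotides are small nuclear RNA genes, and 31 of the 32 genes of 164 nucleotides are too. Among lengths of 132, 134 and 135 nucleotides, 30 of 31, 30 of 32 and 40 of 43 RefSeq genes are small nucleolar RNA genes. Such lengths, held by at least 5 RefSeq genes of which at least 90% belong to 1 class, covered 45 of the measured genes for small nuclear RNA, 27 for small nucleolar RNA, 12 for transfer RNA and 6 for microRNA. These are classes of equal length and not identifications of single genes. The lengths for transfer RNA are 72 and 73 nucleotides, with 1035 and 1045 RefSeq genes but only 46 and 38 candidates in the count files. Most RefSeq genes of these lengths thus have no counterpart of equal length there, so length does not point to transfer RNA for these 12.

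Several steps of the protocol bear on every value below. Total RNA was depleted of ribosomal RNA, and no step that enriches or keeps small RNA is named in the labels. Paired reads of 150 nucleotides exceed the length of many of these genes, and a fragment counted for one can extend into the surrounding transcript. How often this happened was not tested. Counting used any overlap with an exon, ignored strand and used an alignment without duplicates, per the file headers. A short RNA with fixed ends yields few distinct fragments, and those beyond the first of each kind are discarded. The counting command names no option to keep reads that align to several places, so near-identical copies are undercounted and their levels relative to each other are uncertain. A small gene in an intron also collects fragments of the unspliced longer transcript, on either strand.

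The 315 genes ranged from 38 to 200 nucleotides with a median of 122. Of these, 291 had a count in all 19 libraries. They lay on 29 chromosomes, with 3 on unplaced scaffolds, and chromosome 19 held 43 of them (13.7%), followed by chromosome 2 with 22 and chromosome 29 with 21. Of the 3388 candidates, these chromosomes held 184, 177 and 73. Most were low: 113 averaged under 2 CPM and 42 averaged 10 CPM or more. Neighbours were common, since 164 of the 315 stood in 51 runs with gaps under 50 kb. The share of candidates in such runs is not given here. The second longest run held 10 genes of 9 lengths in 16.3 kb of chromosome 29 (1087043 to 1103387). It totalled 84.6 CPM over the 19 libraries, and by group it averaged 62.0 ± 26.2 (SD, n = 6) in ovoid controls, 85.2 ± 24.9 (SD, n = 6) in ovoid IL6, 81.1 ± 16.5 (SD, n = 4) in tubular controls and 104 ± 32.6 CPM (SD, n = 4) in tubular IL6 conceptuses.

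All 315 together took 0.216% ± 0.0692 of assigned counts (SD, n = 19). In ovoid controls the lowest, median and highest shares were 0.162%, 0.176% and 0.407%. The highest belonged to replicate 3, a library of 329666 counts against 5197824 to 13940103 in the other ovoid controls, and without it the mean was 0.172% ± 0.00886 (SD, n = 5). Ovoid IL6 conceptuses had a lowest share of 0.167%, a median of 0.222% and a highest share of 0.354%. The 4 tubular controls had 0.196%, 0.196%, 0.183% and 0.184%, and the 4 tubular IL6 conceptuses 0.387%, 0.206%, 0.210% and 0.188%. The IL6 groups therefore overlapped the controls, and their spread came from a few high libraries.

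Those high IL6 libraries, ovoid IL6 replicates 1, 2 and 3 at 0.239%, 0.354% and 0.354% and tubular IL6 replicate 1 at 0.387%, all carry title code c6186. Over the codes, the mean share was 0.285% ± 0.0909 (SD, n = 6) in c6186 and 0.192% ± 0.0193 (SD, n = 4) in c9007. Control codes averaged 0.166% ± 0.00512 in c201 without ovoid control replicate 3 (SD, n = 3), 0.189% ± 0.00889 in c5036 (SD, n = 4) and 0.184% ± 0.000588 in c8086 (SD, n = 2). Code c6186 also held the shallower libraries, with 2298491 to 6262473 counts against 8589036 to 11366747 in c9007. Depth, code and treatment move together here and cannot be told apart. A share summed over genes chosen by their level was given no test.

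**Figure D1:**
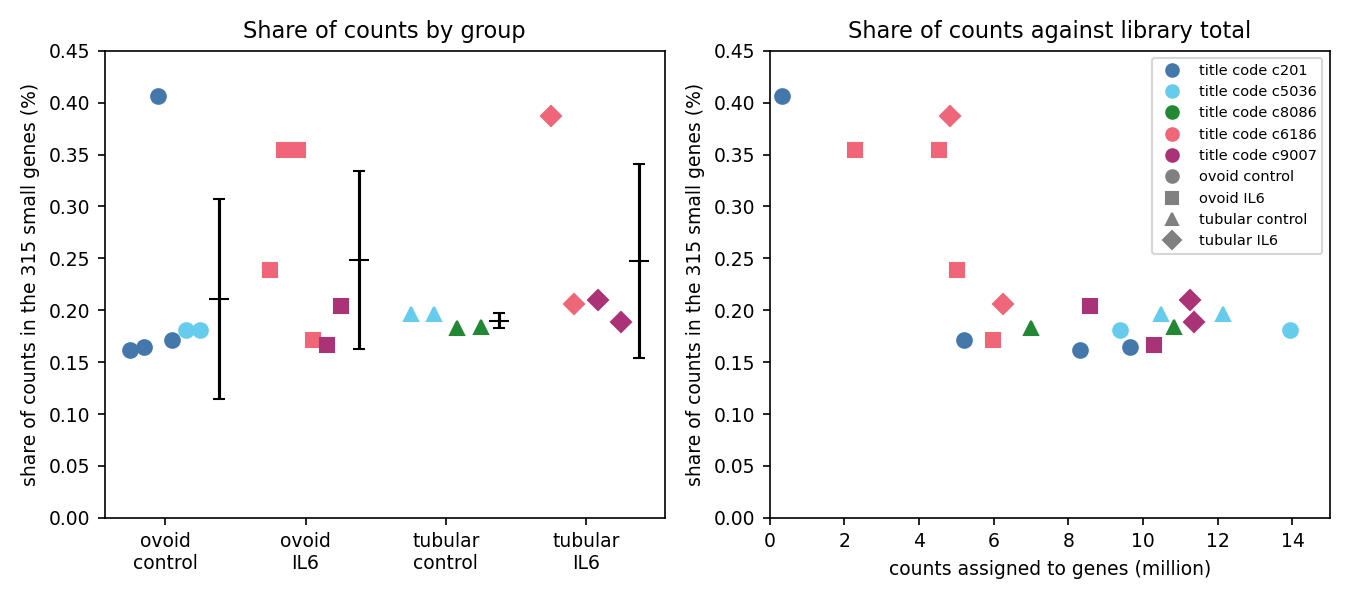
Share of assigned counts (%) in the 315 small genes. Left, 1 point per conceptus by group, with the group mean and SD as a black dash and bar; right, the same shares against library total, with colours for title codes and shapes for groups. The highest share, 0.407%, is in the shallowest library, and the next 3 belong to code c6186.

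Depth was followed further within the data. Over the 19 libraries, the 6 with fewer than 6000000 counts had a median share of 0.296%, and the 13 deeper ones 0.184%. All of those 6 carry code c6186 except ovoid control replicate 4 (c201), which had 0.172%. Ovoid IL6 replicate 4, of c6186, also had 0.172%, so the split by depth is nearly a split by code. For each gene, log2 of the count plus 0.5 was set against log2 of the library total; a slope of 1 means that counts grow in proportion to depth. The median slope was 0.70 over the small genes and 1.09 over the 13317 genes longer than 200 nucleotides with a mean of at least 1 CPM. At 10 CPM or more, the medians were 0.46 over 42 small genes and 1.10 over 9121 longer genes. Counts of the abundant small genes thus grew less than in proportion to depth across these libraries, which share their title codes with their depth. The coefficient of variation over libraries had a median of 0.506 in small and 0.318 in longer genes. This difference went with level. Between 1 and 2 CPM the medians were 0.540 in small and 0.625 in longer genes, between 2 and 5 CPM 0.505 and 0.510, between 5 and 10 CPM 0.441 and 0.418, and from 10 CPM upward 0.510 and 0.259. The slopes, too, were close between 1 and 2 CPM, at 0.89 and 0.91. The bin from 10 CPM upward has no upper limit, so levels are not matched in it. Small genes there averaged at most 123 CPM, and longer genes reached at least 3073 CPM. In the bounded bins of 2 to 5 and 5 to 10 CPM, median slopes were 0.66 and 0.64 in small and 1.04 and 1.14 in longer genes.

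The top of the list was held by few loci, and the 10 most abundant genes took 31.0% ± 5.52 (SD, n = 19) of the counts of all 315. ENSBTAG00000048699 (chromosome 29, 43675284 to 43675387 of ARS-UCD1.2, plus strand, 104 nucleotides, in no longer gene) was first at 123 CPM. Among ovoid controls its lowest, median and highest CPM were 62.9, 86.6 and 807. Ovoid IL6 conceptuses had a lowest value of 71.6, a median of 174 and a highest value of 272 CPM. In tubular conceptuses it measured 85.7, 58.8, 116 and 54.1 CPM in controls and 67.5 to 209 CPM with IL6. The groups overlapped, and the 6 conceptuses of c6186 ranged from 115 to 272 CPM while the 4 of c9007 ranged from 67.5 to 109 CPM. Its edgeR log2 fold change with IL6 was 0.06 ± 0.61 in ovoid conceptuses (SE; adjusted p = 0.998), and without ovoid control replicate 3, the library at 807 CPM, 1.01 ± 0.40 (SE; adjusted p = 0.400). In tubular conceptuses it was 0.80 ± 0.72 (SE; adjusted p = 1.0).

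Of the 12 most abundant genes, 7 were 191 nucleotides long and lay on chromosome 19. The other 4 after the first were ENSBTAG00000053048 on chromosome 24 (14321377 to 14321571, 195 nucleotides, 52.4 CPM), ENSBTAG00000054661 on chromosome 2 (121575106 to 121575160, 55 nucleotides, 47.7 CPM), ENSBTAG00000048608 on chromosome 27 (6222648 to 6222800, 153 nucleotides, 44.9 CPM) and ENSBTAG00000042963 on chromosome 29 (1089786 to 1089922, 137 nucleotides, 39.7 CPM). CPM per kilobase of annotated length compares levels between genes. On that scale ENSBTAG00000048699 stood at 1179, ENSBTAG00000054661 at 867 and the highest gene of 191 nucleotides, ENSBTAG00000052024, at 595. The scale divides by annotated length, which can understate the stretch from which fragments of such short genes are drawn.

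ENSBTAG00000054661 separated the 2 IL6 codes from each other, while the range of every control code overlapped both. The share of all genes that separate these 2 codes is not given here. All 6 conceptuses of c6186 were low for it, between 5.76 and 32.3 CPM, and the 4 of c9007 lay between 42.4 and 104.6 CPM, so the 2 codes did not overlap. Controls ranged from 20.2 to 153 CPM in ovoid and measured 33.0, 50.7, 20.4 and 62.8 CPM in tubular conceptuses. It lies inside ENSBTAG00000051364 on the same strand and over none of its exons. That longer gene measured 23.2 to 105.1 CPM in c6186 and 36.4 to 67.9 CPM in c9007, with overlap.

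**Figure D2:**
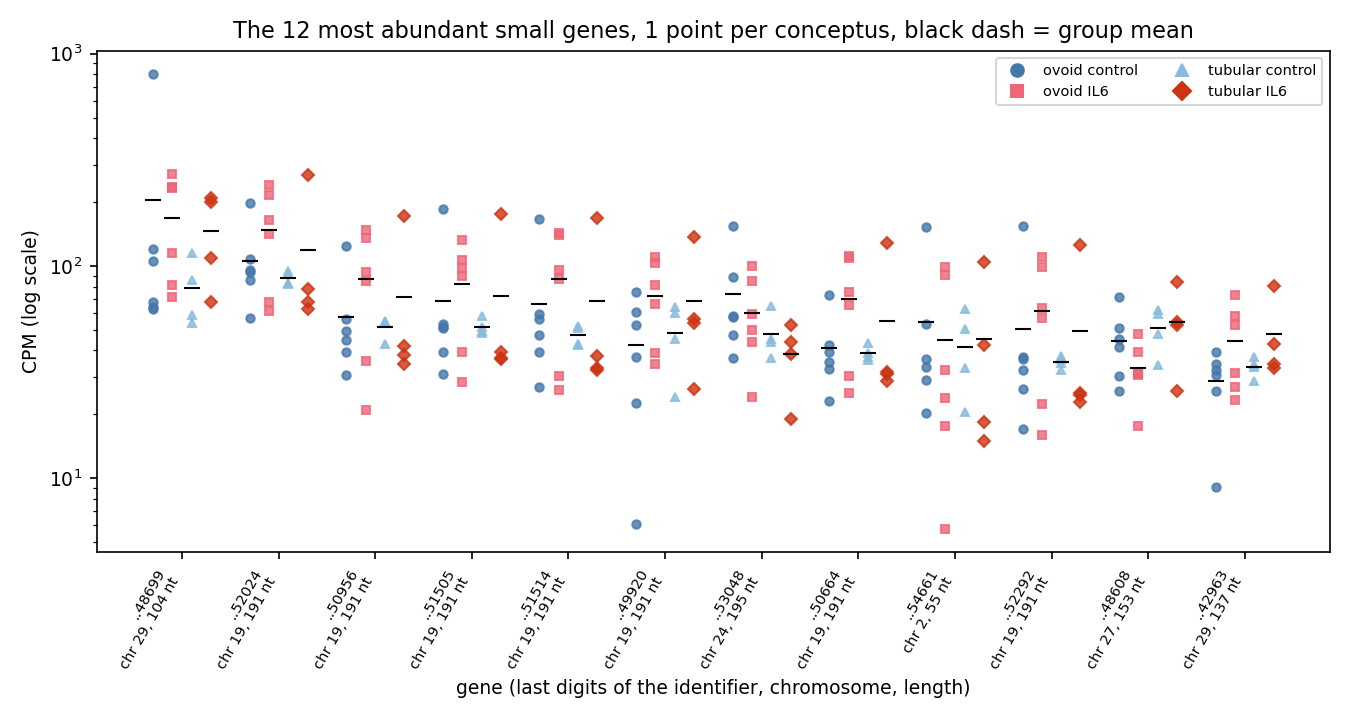
CPM (log axis) of the 12 most abundant small genes, 1 point per conceptus and a black dash at each group mean, with groups in 4 colours. The groups overlap at every gene, and ENSBTAG00000048699 reaches 807 CPM in ovoid control replicate 3.

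The main concentration was an array on chromosome 19 (43195585 to 43334403), where all 12 candidates of 191 nucleotides were expressed within 138.8 kb, 6 on each strand. Together they took 24.0% ± 6.82 (SD, n = 19) of the counts of the 315 genes. These 12 are most of the 18 candidates of 191 nucleotides in the count files, of which 15 passed the level limit. Summed over the array, ovoid controls had a lowest, median and highest level of 255, 409 and 937 CPM, and ovoid IL6 conceptuses 247, 717 and 1157 CPM. Tubular groups averaged 431 ± 49.3 CPM in controls (SD, n = 4) and 598 ± 500 CPM with IL6 (SD, n = 4). The mean of c6186 was 818 ± 463 CPM (SD, n = 6) and that of c9007 was 437 ± 173 CPM (SD, n = 4), with overlap. All 12 had positive log2 fold changes with IL6 in ovoid conceptuses (median 0.73) and 5 of 12 without c6186 (median -0.06). In tubular conceptuses 10 of 12 were positive (median 0.50), and without c6186 6 of 12 were (median -0.24). Of all small genes, 247 of 314 were positive in ovoid and 263 of 314 in tubular conceptuses, against 51.7% and 50.2% of all genes. Without c6186 these were 117 and 173 of 312, against 50.1% and 50.6%. The 12 were counted in the same libraries, so their signs are not independent of each other.

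Members of the array differed in level by 66.7-fold. ENSBTAG00000052024 (43320170 to 43320360, minus strand) was the highest in 19 of 19 libraries at a mean of 114 CPM, and ENSBTAG00000049749 (43195585 to 43195775, plus strand) was the lowest at 1.70 CPM. Between them, ENSBTAG00000050956, ENSBTAG00000051505, ENSBTAG00000051514 and ENSBTAG00000049920 stood at 64.8, 64.0, 63.8 and 60.5 CPM, with coefficients of variation of 0.505 to 0.674. That spread is between libraries, which these genes share, and does not measure differences between the genes. Whether these neighbours in the order differ within libraries was not tested. ENSBTAG00000050664 followed at 50.9 and ENSBTAG00000052292 at 45.2 CPM. How much of these differences comes from reads that align to several copies was not tested.

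A pair of array genes was high in single conceptuses. ENSBTAG00000050245 (43284044 to 43284234, minus strand) had the largest coefficient of variation, 1.74, among small genes of at least 5 CPM. It measured 35.6 CPM in ovoid control replicate 6, 67.9 CPM in ovoid IL6 replicate 3, 36.7 CPM in tubular control replicate 2 and 31.5 CPM in tubular IL6 replicate 3. In all other conceptuses it lay between 0.215 and 5.72 CPM. One conceptus in each group was thus high, over 3 title codes and both sexes, and no value fell between 5.72 and 31.5 CPM.

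ENSBTAG00000053925 (43252658 to 43252848, minus strand), next in coefficient of variation at 1.17, was high in the same 4 conceptuses. It measured 26.0, 25.2, 27.5 and 19.9 CPM there and 1.35 to 9.10 CPM in the others. Both lie inside ENSBTAG00000049347, a longer gene on the minus strand. That gene measured 8.20, 27.4, 5.85 and 6.67 CPM in those 4 conceptuses and 4.33 to 22.7 CPM in the others, so it did not separate them. ENSBTAG00000049633 (43334213 to 43334403) was low in 3 conceptuses of 3 control codes, at 2.41 CPM in ovoid control replicate 1, 1.82 CPM in tubular control replicate 1 and 2.43 CPM in tubular control replicate 3. The shallow ovoid control replicate 3 had 9.10 CPM, and the remaining 16 conceptuses had 13.1 to 123 CPM.

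**Figure D3:**
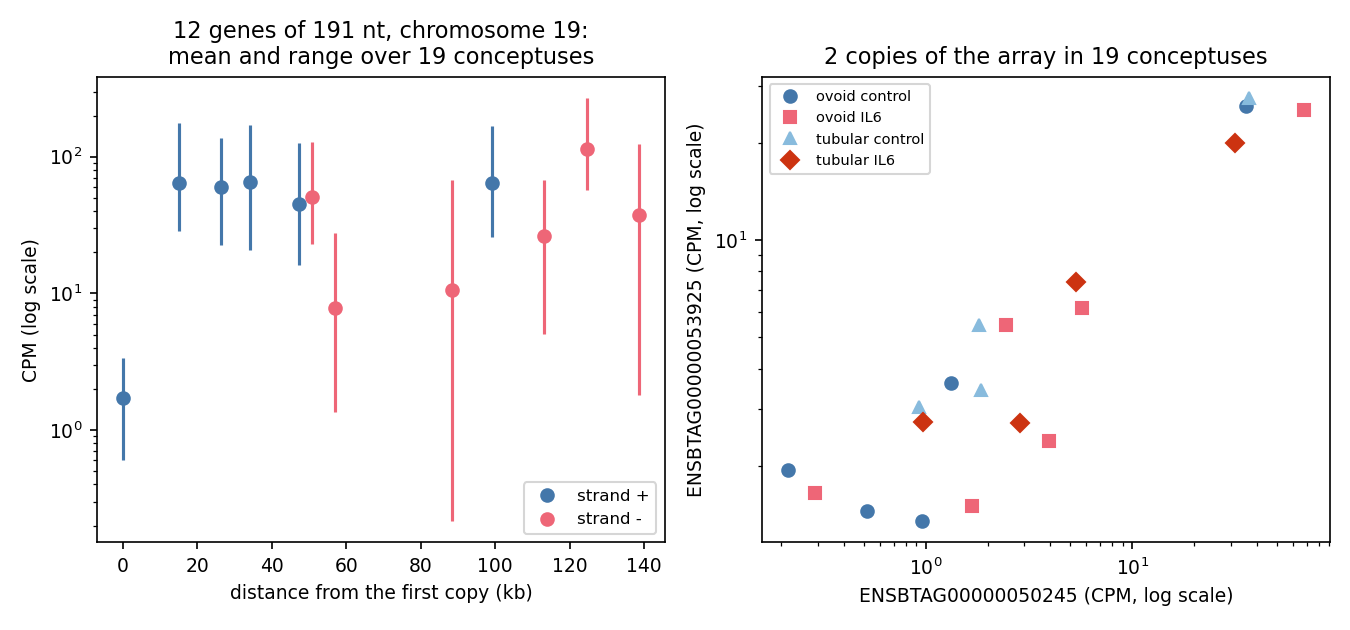
Left, mean CPM (log axis) of the 12 genes of 191 nucleotides against distance in kb from the first, with bars from the lowest to the highest of 19 conceptuses and colours for strand. Right, CPM of ENSBTAG00000053925 against ENSBTAG00000050245 (both axes logarithmic) in 19 conceptuses; the 4 points at upper right are 1 conceptus from each group.

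Genes of 164 nucleotides formed the other large length class, with 18 of 30 candidates measured and 11.1% ± 2.37 (SD, n = 19) of the counts. Their sum had a lowest, median and highest level of 107, 175 and 692 CPM in ovoid controls, the highest again in replicate 3, and 153, 205 and 459 CPM in ovoid IL6 conceptuses. It averaged 249 ± 26.2 CPM in tubular controls (SD, n = 4) and 320 ± 97.1 CPM in tubular IL6 conceptuses (SD, n = 4). With all libraries, 15 of 18 had positive tubular-to-ovoid fold changes in controls and 16 of 18 with IL6, with medians of 0.15 and 0.27. Of all 314 small genes tested, 181 and 193 were positive, with medians of 0.07 and 0.13. The control median of the 18 was 0.60 without ovoid control replicate 3. Without c6186, all 18 were positive in both treatments, with medians of 0.24 in controls and 0.36 with IL6. There 196 and 223 of all 312 small genes were positive, with medians of 0.12 and 0.33, against 48.7% and 49.4% of all genes. Positive fold changes were thus not particular to the 18 genes. Genes counted in the same libraries are not replicates, and these sign counts were not tested. With title code as a fixed term, an alternative chosen after seeing the data that compares shapes within codes, 17 of 18 were positive in controls and 18 of 18 with IL6, each against 47.4% of all genes. In controls that contrast rests on c5036, with 2 conceptuses of each shape. The count over all small genes under it is not given here. Single members did not pass the adjusted threshold, and near-identical copies are not independent of each other.

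Most of the 315 genes, 197 or 62.5%, lay inside the span of a longer gene. So did 1602 of the 3388 candidates. Of the candidates inside, 12.3% were measured, against 6.61% of the 1786 outside. Of these, 176 lay on the strand of the longer gene and 21 on the opposite strand. Only 2 of the 197 overlapped one of its exons, and the other 195 lay between exons. The 197 took 36.5% ± 2.59 (SD, n = 19) of the counts of all 315, and the 118 outside longer genes took 63.5%. Median levels were 2.29 CPM inside and 3.99 CPM outside.

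Whether a candidate inside a longer gene was measured went with the level of that gene, and more so on the same strand. Where the longer gene averaged under 1 CPM, 2.29% of 175 same-strand candidates and 0.952% of 105 opposite-strand candidates were measured. Between 1 and 10 CPM these shares were 4.95% of 182 and 4.35% of 115, and between 10 and 100 CPM they were 11.2% of 411 and 4.02% of 199. At 100 CPM or more, 34.9% of 335 same-strand and 8.75% of 80 opposite-strand candidates were measured. Fragments of the unspliced longer transcript and of the small RNA were counted alike, and their parts in these shares cannot be told apart in these files.

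Per kilobase, the small genes stood at a median of 0.350 times the level over the exons of the longer gene. In 51 of 197 the small gene was the higher per kilobase, and in 15 it had the higher CPM as well. ENSBTAG00000052292, a gene of the array on chromosome 19, measured 45.2 CPM inside ENSBTAG00000053307 at 0.332 CPM. ENSBTAG00000054016 (chromosome 17, 62623977 to 62624117, minus strand) measured 27.4 CPM inside ENSBTAG00000021168, a gene of 6.83 CPM on the opposite strand. ENSBTAG00000028809 (chromosome 2, 94039647 to 94039810, 164 nucleotides) measured 14.8 CPM inside ENSBTAG00000011971 at 6.59 CPM. In the shallow ovoid control replicate 3 that pair stood at 81.9 and 849 CPM. ENSBTAG00000042649 (chromosome 15, 54594237 to 54594386) had the reverse relation, with 15.7 CPM inside ENSBTAG00000005620 at 970 CPM.

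**Figure D4:**
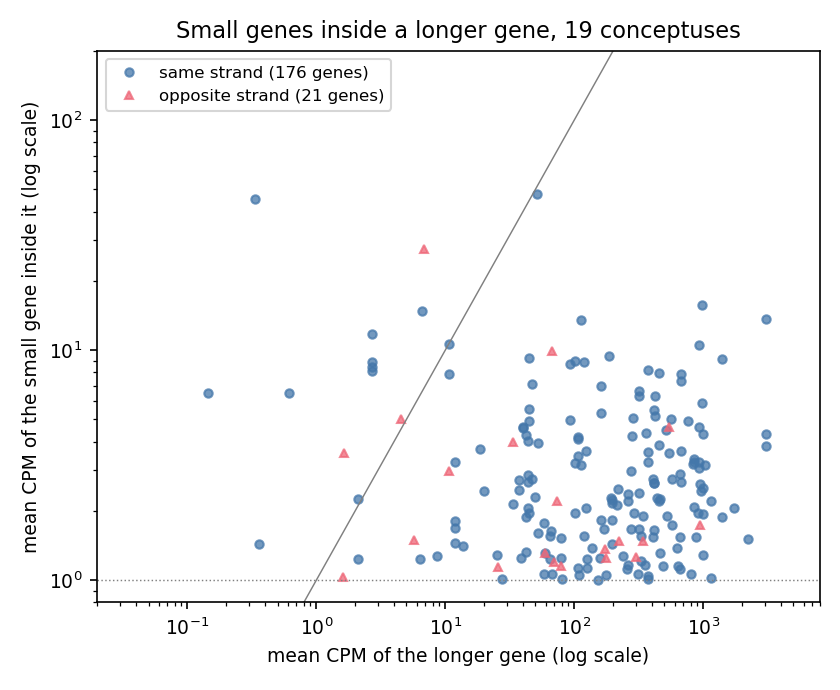
Mean CPM over 19 conceptuses of each small gene (vertical, log axis) against that of the longer gene around it (horizontal, log axis), with circles for the same strand (176) and triangles for the opposite strand (21). The solid line marks equal CPM, with 15 genes above it, and the dotted line is the level limit of 1 CPM.

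The 197 shared 136 longer genes, of which 35 held at least 2 members. ENSBTAG00000018812 (chromosome 13, 52519428 to 52524691, minus strand, 374 CPM) held 5, all on its strand and of 71 to 136 nucleotides. Their mean CPM, not scaled by length, ran from 1.01 for ENSBTAG00000042607 to 8.20 for ENSBTAG00000042631. ENSBTAG00000010167 (chromosome 19, 9512391 to 9662512, 2.68 CPM) held 4, all of 164 nucleotides. They averaged 8.09, 8.88, 8.47 and 11.7 CPM, each above the gene around them. ENSBTAG00000048228 (chromosome 2, 124850784 to 124854007, 44.9 CPM) held 4 of 74 to 135 nucleotides, from 1.95 CPM for ENSBTAG00000042553 to 9.24 CPM for ENSBTAG00000043315.

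The first designed comparison asked whether IL6 given before transfer went with different levels in ovoid conceptuses. No small gene passed an adjusted p of 0.05 in edgeR's quasi-likelihood test, in which 0 of all 14875 tested genes passed (0%). DESeq2 called 1 of 314 small genes, against 0.578% of all genes. At an unadjusted p under 0.05, edgeR had 27 of the 314 small genes tested, or 8.60%, against 8.34% of all genes, so their number is near the background. All 27 had positive fold changes, so 8.60% of the small genes passed with one, against 5.33% of all genes. DESeq2 had 28 (8.92%), against 10% of all genes. With title code as a random block (limma, within-code correlation 0.148) 1 small gene passed, with a negative fold change, against 2.33% of all genes. Positive fold changes were held by 247 of 314 small genes, with a median of 0.39, against 51.7% of all genes tested, with a median of 0.02. Without c6186 117 of 312 were positive, with a median of -0.13, against 50.1% of all genes. Without c9007 the median was 0.56 and 2 small genes passed, against 1.01% of all genes.

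ENSBTAG00000046619 (chromosome 1, 658163 to 658288, minus strand, 126 nucleotides) had the smallest p. It had 0 counts in all 6 ovoid controls and 26, 20, 18, 25, 0 and 1 counts in ovoid IL6 replicates 1 to 6. The 4 high libraries are those of c6186 and the 2 low ones those of c9007. Summed over each group, its level with IL6 was at least 38.2-fold higher than the floor of 3 counts over the ovoid controls, a bound that covers counting error only. The edgeR log2 fold change, 7.81 ± 1.91 (SE, adjusted p = 0.359), depends on a prior count, and DESeq2 gave an adjusted p of 0.00937. Among tubular conceptuses it had 0, 0, 0 and 2 counts in controls and 3, 34, 2 and 3 with IL6. That is a ratio of 25.2 (95% exact interval 6.55 to 215), and without replicate 2, of c6186, one of 5.89 (1.17 to 56.9). Both intervals cover counting error in the pooled counts only, not the spread between conceptuses.

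The same small gene lies inside ENSBTAG00000054829 (626079 to 668340, plus strand), which moved with it. That gene measured 9.94, 14.1, 16.1, 38.1, 0.583 and 1.51 CPM in ovoid IL6 replicates 1 to 6 and 0 to 0.962 CPM in ovoid controls. In tubular conceptuses it measured 4.54, 10.2, 5.51 and 3.34 CPM with IL6 and 0.287, 0.247, 0.143 and 1.29 CPM in controls. The longer gene was thus higher in all 4 tubular IL6 conceptuses, of both codes, than in any control, while the 2 ovoid conceptuses of c9007 had 0.583 and 1.51 CPM, against at most 1.29 CPM in controls. Counting ignored strand, so the RNA of the 2 genes cannot be told apart.

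ENSBTAG00000045885 (chromosome 19, 48680498 to 48680581, 84 nucleotides) was next. Its lowest, median and highest CPM were 1.56, 2.91 and 6.35 in ovoid controls and 2.68, 8.45 and 19.1 with IL6, for a log2 fold change of 1.61 ± 0.55 (SE; adjusted p = 0.405, edgeR). All 6 conceptuses of c6186, ovoid and tubular, lay between 8.36 and 19.1 CPM, above every other conceptus, the highest of which had 6.35 CPM. Without c6186 the fold change was -0.58. The gene lies inside ENSBTAG00000018423 and over an exon of it. Toward lower values, ENSBTAG00000048350 had a log2 fold change of -1.37 ± 0.71 (SE; adjusted p = 0.648, edgeR) and ENSBTAG00000025666 one of -0.83 ± 0.46 (SE; adjusted p = 0.672, edgeR). The latter turned to 0.04 without c6186.

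For IL6 in tubular conceptuses, 0 small genes passed in edgeR or DESeq2, as did 0% of all genes. At an unadjusted p under 0.05, edgeR had 14 of 314 (4.46%), all positive, against 2.51% of all genes and 1.92% with positive fold changes. DESeq2 had 20 (6.37%), against 4.23%. With the random block 4 of 314 passed, against 1.75%. Positive fold changes were held by 263 of 314, with a median of 0.38, against 50.2% of all genes. Without c6186 the count was 173 of 312, with a median of 0.07, against 50.6%. ENSBTAG00000053684 (chromosome 27, 26516607 to 26516738, 132 nucleotides) measured 1.24, 1.90, 0.858 and 1.02 CPM in controls and 7.43, 3.67, 1.96 and 1.14 CPM with IL6. Its groups overlapped at 1.14 CPM, and the log2 fold change was 1.60 ± 0.48 (SE; adjusted p = 1.0, edgeR). ENSBTAG00000047431 (chromosome 11, 87198961 to 87199092, also 132 nucleotides) measured 4.49, 3.79, 2.0 and 3.88 CPM in controls and 9.08, 4.95, 6.13 and 4.22 CPM with IL6, with overlap and a log2 fold change of 0.89 ± 0.30 (SE; adjusted p = 1.0, edgeR). Toward lower values, ENSBTAG00000033994 had a log2 fold change of -1.56 ± 0.94 (SE) and ENSBTAG00000051517 one of -0.88 ± 0.59 (SE), both at an edgeR adjusted p of 1.0.

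Averaged over shapes, IL6 gave 0 small genes in edgeR after adjustment (0% of all genes). DESeq2 gave 3 of 314, against 0.961% of all genes, so their number is near the background. Those 3 were ENSBTAG00000046619, ENSBTAG00000053684 and ENSBTAG00000047431, with DESeq2 adjusted p of 0.00478, 0.0269 and 0.0497. At an unadjusted p under 0.05 edgeR had 51 of 314 (16.2%), all positive, against 10.7% of all genes and 7.87% with positive fold changes. DESeq2 had 58 (18.5%), against 13.9%. With the random block 10 of 314 passed, all positive, against 4.15% of all genes. Without c9007, 14 small genes passed the adjusted threshold in edgeR, against 2.27% of all genes. The median fold change was 0.38, with 257 of 314 positive against 49.5% of all genes, and -0.04 without c6186, with 144 of 312 positive against 49.9%. Genes inside longer genes had a median of 0.42 (170 of 197 positive) and those outside 0.29 (87 of 117 positive). Without c6186 these medians were -0.01 and -0.11. The 3 IL6 comparisons share their libraries, so these counts are not separate evidence. The IL6 effect in tubular less that in ovoid conceptuses passed for 0 small genes, also at an unadjusted p under 0.05, where 0.632% of all genes did in edgeR and 0.955% in DESeq2.

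**Figure D5:**
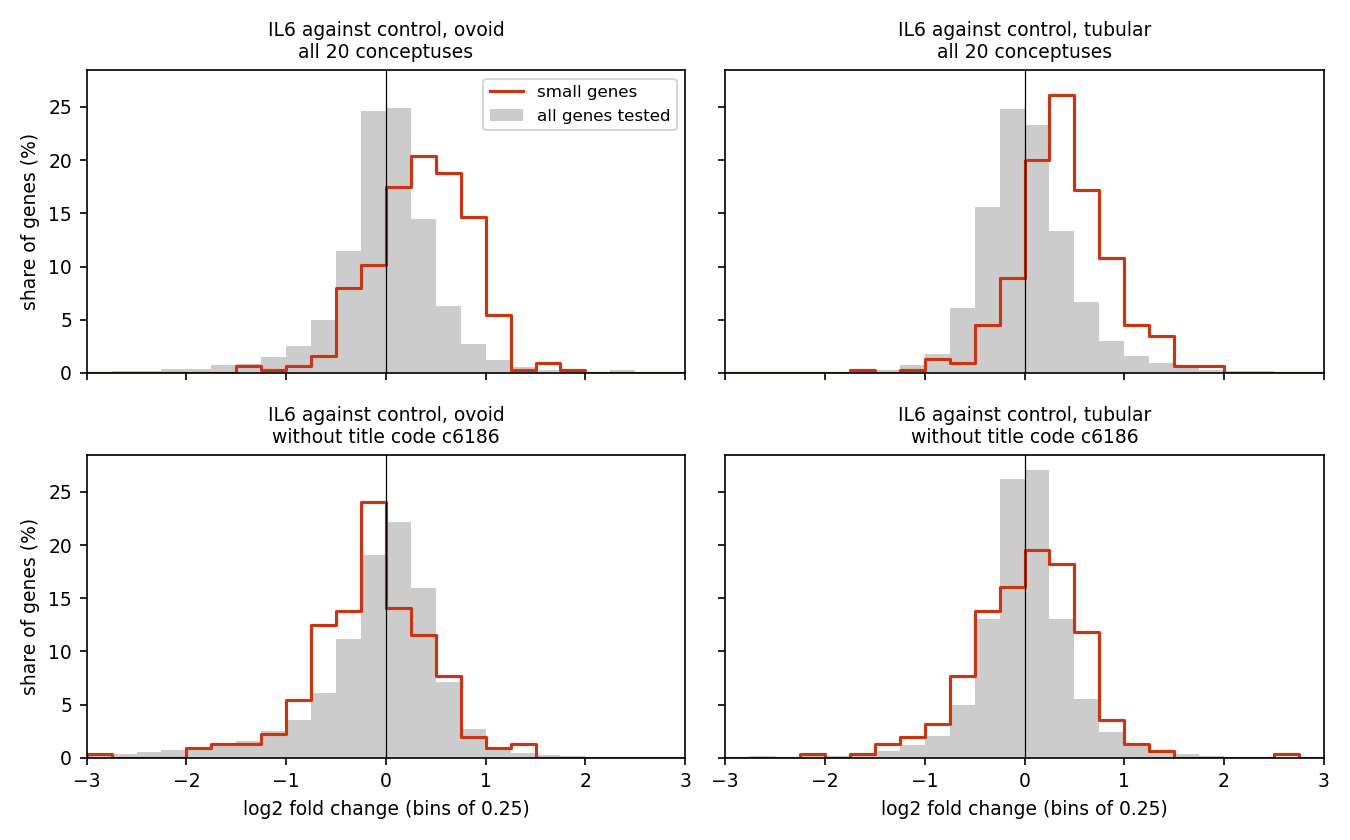
Share of genes (%) in bins of log2 fold change with IL6, in ovoid (left) and tubular (right) conceptuses, for all genes tested (grey bars) and for the small genes (red line). With all 20 conceptuses (top) the small genes have medians of 0.39 and 0.38; without title code c6186 (bottom) the medians are -0.13 and 0.07.

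The comparison of tubular with ovoid conceptuses asked how levels differ between an earlier and a later shape of elongation. In controls, 0 small genes passed in edgeR or DESeq2, as did 0% of all genes. At an unadjusted p under 0.05, edgeR had 5 of 314 (1.59%), against 1.64% of all genes. Of the 314, 4 passed with a positive fold change, or 1.27%, against 0.229% of all genes. DESeq2 had 7 (2.23%), against 2.7%. In controls 6 of the 10 libraries belong to codes with 1 shape only, so shape and code cannot be told apart there. With title code as a fixed term, which leaves the contrast to c5036, 1 small gene passed, against 0.262% of all genes. The median fold change was 0.07, with 181 positive against 50.8% of all genes. ENSBTAG00000042723 (chromosome 2, 124806156 to 124806288, 133 nucleotides) measured 3.06, 1.65, 2.29 and 1.76 CPM in tubular controls and 0 to 1.08 CPM in ovoid controls. These groups did not overlap, with a log2 fold change of 1.36 ± 0.38 (SE; adjusted p = 1.0, edgeR). ENSBTAG00000052852 (chromosome 3, 22717000 to 22717163, 164 nucleotides) measured 27.7, 26.2, 4.29 and 23.1 CPM in tubular and 0 to 11.9 CPM in ovoid controls, with overlap and a log2 fold change of 1.71 ± 0.65 (SE; adjusted p = 1.0, edgeR). Toward lower values, ENSBTAG00000049005 rested on 249 CPM in the shallow ovoid control replicate 3. Its log2 fold change of -3.06 ± 1.33 (SE; adjusted p = 1.0, edgeR) was -0.68 without the 2 libraries under 3000000 counts and -0.31 with title code as a fixed term. ENSBTAG00000042882 had one of -2.20 ± 1.09 (SE; adjusted p = 1.0, edgeR).

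With IL6, 0 small genes passed between shapes in edgeR or DESeq2, as did 0% of all genes. At an unadjusted p under 0.05, edgeR had 10 of 314 (3.18%), against 2.80% of all genes. Of the 314, 8 passed with a positive fold change, or 2.55%, against 1.3% of all genes. DESeq2 had 15 (4.78%), against 4.38%, and with title code as a fixed term 9 of 314 passed, against 2.66%. The median fold change was 0.13, with 193 positive against 46.4% of all genes. ENSBTAG00000042723 was again among the 2 with the smallest p toward higher values, at 3.30, 2.24, 2.04 and 1.67 CPM in tubular and 0.680 to 1.79 CPM in ovoid IL6 conceptuses (log2 fold change 0.92 ± 0.37, SE, edgeR adjusted p = 1.0). ENSBTAG00000042377 (chromosome 18, 55942970 to 55943054, 85 nucleotides) measured 3.71, 3.35, 3.56 and 3.08 CPM in tubular and 1.19 to 2.42 CPM in ovoid IL6 conceptuses. Its groups did not overlap, with a log2 fold change of 0.86 ± 0.34 (SE; adjusted p = 1.0, edgeR). Toward lower values stood ENSBTAG00000045783 at -1.10 ± 0.42 and ENSBTAG00000051517 at -1.45 ± 0.56 (SE, both at an edgeR adjusted p of 1.0).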

How the data were processed

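RNA counts of 20 conceptuses were used. The authors deposited raw fragment counts per gene, made with featureCounts 2.0.1 in paired mode without strand over exons of Ensembl release 105 (ARS-UCD1.2), ignoring duplicates, on a duplicate-removed alignment, per the file headers. The submitters' processing notes also list the tools HISAT2, SAMtools and Picard, without versions. Library totals ran from 329666 to 13940103.

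CPM was computed here as counts scaled to an assigned total of 1000000 per library. Longer genes are those over 200 nucleotides; inside means full containment in such a gene's span. All 14875 genes passing edgeR's default filter were fitted in edgeR 4.0.16 (quasi-likelihood, robust, TMM factors, 4 group terms and sex, all 20 libraries), with Benjamini-Hochberg adjustment over all of them. Of the 315 small genes 314 passed that filter. A standard error is the absolute log2 fold change over the root of the F statistic. Alternatives used DESeq2 1.42.0 and limma 3.58.1. The edgeR test of IL6 in ovoid conceptuses was checked on simulated independent libraries without a title code effect. Other comparisons and the alternatives were not checked in this way. R 4.3.3, Python 3.11.15 and matplotlib 3.10.9 were used.

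Named genes are the 12 most abundant, the 5 most abundant inside longer genes, the 3 longer genes holding most members, the 5 most variable of at least 5 CPM, the 2 with the smallest p per direction and comparison, and the 2 either side of the CPM limit. ENSBTAG00000049749, ENSBTAG00000049633 and single genes of the 3 longer genes were named after their values were seen. Gene lists and marker lists given by symbol could not be tested, because 0 identifiers matched. Members and lists were chosen with earlier results of these data known.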

Additional observations from a re-analysis of the deposited data

Results flagged for a closer look

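Within each group, the highest and lowest conceptus were compared with the others for the shares and named genes, over 132 sets of values. In 34 of them 1 conceptus stood apart beyond the 95% limit of Dixon's test. Chance alone would mark about 1 in 20 independent sets, but these sets are not independent: they include sums of the same genes in the same libraries, and genes named for their variability or their small p, so 34 is a description.

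Ovoid control replicate 3, the library of 329666 counts, stood apart in 12. All 315 small genes took 0.407% of its counts, those outside longer genes 0.315% and those of 164 nucleotides 0.0692%. It had 807 CPM of ENSBTAG00000048699, 197 CPM of ENSBTAG00000052024, 124 CPM of ENSBTAG00000050956, 185 CPM of ENSBTAG00000051505, 167 CPM of ENSBTAG00000051514 and 155 CPM of ENSBTAG00000052292. It also had 57.6 CPM of ENSBTAG00000054016, 81.9 CPM of ENSBTAG00000028809 and 249 CPM of ENSBTAG00000049005. The next highest ovoid control had 5.58 CPM of the last.

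Tubular IL6 replicate 1, of title code c6186, stood apart in 10. Its shares were 0.387% for all small genes, 0.134% for the array on chromosome 19, 0.135% for genes inside longer genes and 0.253% for those outside. Of array genes it had 269 CPM of ENSBTAG00000052024, 171 CPM of ENSBTAG00000050956, 176 CPM of ENSBTAG00000051505, 169 CPM of ENSBTAG00000051514, 129 CPM of ENSBTAG00000050664 and 126 CPM of ENSBTAG00000052292.

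ENSBTAG00000050245 stood apart in all 4 groups, at 35.6 CPM in ovoid control replicate 6, 67.9 CPM in ovoid IL6 replicate 3, 36.7 CPM in tubular control replicate 2 and 31.5 CPM in tubular IL6 replicate 3. ENSBTAG00000053925 did so in the first 3 of these conceptuses, at 26.0, 25.2 and 27.5 CPM. Single values were 153 CPM of ENSBTAG00000054661 in ovoid control replicate 5, 6.35 CPM of ENSBTAG00000045885 in ovoid control replicate 4 and 21.8 CPM of ENSBTAG00000045783 in ovoid IL6 replicate 3. In tubular controls, replicate 3 had 10.6 CPM of ENSBTAG00000036858, and replicate 1 was lowest for ENSBTAG00000050956 at 42.7 CPM.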

How the results depend on the processing

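No named gene passed the adjusted threshold in edgeR with all libraries. Of 606 values under alternatives for 20 gene-comparison pairs, 596 kept their sign and stayed short of it, 7 came to pass it and 3 reversed. The reversals came without title code c6186: ENSBTAG00000045885 with IL6 in ovoid conceptuses (-0.58), and ENSBTAG00000025666 in ovoid conceptuses (0.035) and averaged over shapes (0.042). The cause was not tested. ENSBTAG00000046619 had no value without c6186, in ovoid conceptuses or averaged over shapes, so it is absent from that setting.

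For small genes at an adjusted p under 0.05, DESeq2 gave 1 in ovoid IL6 and 3 in averaged IL6, against 0.578% and 0.961% of all genes. EdgeR without c9007 gave 2 and 14, against 1.01% and 2.27% of all genes. At an unadjusted p under 0.05, small genes numbered 27 in ovoid, 14 in tubular and 51 in averaged IL6 comparisons. All genes there passed at 8.34%, 2.51% and 10.7%. Without c6186 small genes numbered 9, 4 and 10 of 312, against 663, 218 and 718 of all 15422 genes. Without c9007 they were 65, 46 and 105 of 313, against 1987, 1484 and 3088 of all 15174. With the title code as a random block they were 1, 4 and 10 of 314, against 2.33%, 1.75% and 4.15% of all genes. Calls over all genes thus moved in the same directions. Ovoid IL6 had 4 without c201. Between shapes, small genes at that p numbered 5 in control and 10 with IL6. Without c6186 they were 10 and 5, against 239 and 296 of all 15422 genes. Without the 2 libraries under 3000000 counts (chosen after seeing the data) they were 18 and 18. In control they were 1 without c201 and 1 with title code as a fixed term (chosen after seeing the data). With IL6 they were 5 without c9007, against 665 of all 15174 genes, and 17 with the block. For settings without a count over all genes, the background is not given here. The median fold change of small genes was -0.13 (ovoid), 0.069 (tubular) and -0.041 (averaged) without c6186, and 0.26 (ovoid) with the block. RLE factors and the low-count filters left it positive, at 0.34 to 0.37.

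Leaving out 1 conceptus gave 0 small genes at an adjusted p throughout. Unadjusted counts over all genes moved as well. In averaged IL6 they were 928 of 15227 without tubular IL6 replicate 1 and 2471 of 14738 without ovoid control replicate 3. The counts that follow are of small genes, and the shares over all genes are not given beside them. The lowest and highest unadjusted counts were 11 (ovoid IL6 replicate 2 left out) and 49 (ovoid control replicate 3) in ovoid IL6, 4 and 23 in tubular IL6 (tubular IL6 replicates 1 and 4), and 19 (tubular IL6 replicate 1) and 74 (ovoid control replicate 3) averaged. Between shapes they were 2 (tubular control replicate 1 left out) and 23 (ovoid control replicate 5) in control, and 2 (tubular IL6 replicate 3) and 18 (replicate 2 of either IL6 group) with IL6. Other single conceptuses also moved these counts by over 1.5 times. In ovoid IL6 they were ovoid control replicates 1 (15) and 2 (14) and ovoid IL6 replicates 3 (13) and 5 (41). In tubular IL6 they were ovoid control replicates 1 (9), 2 (9) and 5 (8), ovoid IL6 replicate 4 (8), tubular control replicates 1 (6) and 2 (6) and tubular IL6 replicate 2 (7). Averaged, they were ovoid control replicates 1 (32) and 2 (33), ovoid IL6 replicate 2 (23) and tubular control replicates 1 (32), 2 (32) and 4 (33). Between shapes in control they were ovoid control replicate 6 (9), ovoid IL6 replicate 1 (9) and tubular control replicate 3 (17), and with IL6 ovoid IL6 replicate 1 (6) and tubular IL6 replicates 1 (16) and 4 (5). Medians ran from 0.18 to 0.47 (ovoid, the lowest with ovoid IL6 replicate 2 left out), and from 0.14 to 0.48 (tubular) and 0.24 to 0.43 (averaged), the lowest of each with tubular IL6 replicate 1 left out.

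A limit of 2 CPM kept 202 genes and one of 0.5 CPM 485. The share in tubular controls was 0.182% without the most abundant gene and 0.215% over all candidates. No paired analysis was possible because the labels give no replicate numbers that groups share, and the title codes that shapes share were used as blocks instead. A gene at 1 CPM has few counts in the 2 libraries under 3000000 counts, which limits the precision of low genes there.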
